A study of Mus musculus with 14 samples.

Results

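Mouse embryonic stem cells that had been grown for 5 days in F/A were compared with the same cells grown for 5 days in FBS/LIF, across all expressed genes. F/A is N2B27, a serum-free medium, to which 20 ng/ml of activin A and 12 ng/ml of bFGF were added, the factors that hold epiblast stem cells in culture. FBS/LIF is a serum medium with leukemia inhibitory factor (LIF), and it carried no further addition. Both groups were C57BL/6 cells with a pair of reporters, mCherry for the mir-290 cluster and eGFP for the mir-302 cluster, plated at low density. The comparison was between the 4 libraries named for these media, 2 per medium, of the 14 libraries of the series. It covered every gene that passed a filter on low counts, 16033 of 37991 genes in the files. The spread behind the p-values was estimated over 10 libraries, which include those of LIF media with L-proline, vitamin C or 2i. Fitted alone, the 4 libraries gave 4315 genes at an adjusted p under 0.05, against 7440 in the fit over 10. F/A differs from FBS/LIF in the added factors, in the absence of serum and in the absence of LIF at once, so these cannot be told apart. Whether the 2 replicates of each medium were grown as separate cultures is not stated, so the p-values measure the spread between libraries, which may be technical.

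Mouse embryonic stem cells in LIF resemble the naive epiblast of the blastocyst, while cells kept in activin and FGF resemble the primed epiblast around implantation and later. LIF acts through its receptor, Gp130 and STAT3. Activin and Nodal signal through SMAD2 and SMAD3, and FGF signals through the ERK kinases. When the primed epiblast starts to gastrulate, Wnt, Nodal and FGF signals switch on brachyury and other genes of the primitive streak.

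Mapped fragments were 6937945 and 18424697 in the F/A libraries and 22750698 and 21895681 in the FBS/LIF libraries, so F/A replicate 1 was the shallowest. The F/A libraries also lay further apart from each other. In F/A, 2256 genes differed by more than 1 log2 unit between the 2 libraries, against 1008 in FBS/LIF, and Pearson's r of log2 counts per 1000000 (CPM, after TMM scaling) over the 16033 genes was 0.956 in F/A and 0.978 in FBS/LIF. The fold change also ran with gene length. With the tested genes divided into 5 classes of about equal size by effective length, 8.54% of the shortest class were higher in F/A and 28.2% lower, while 46.8% of the longest class were higher and 10.7% lower. The same slope separated the F/A libraries from each other, with a median log2 difference of replicate 1 minus replicate 2 of -0.37 in the shortest class and 0.32 in the longest, against 0.10 and -0.11 in FBS/LIF. When each library's trend on length was taken out, 3278 genes were higher and 3879 lower. Groups of genes whose count moved with this are named where they are described.

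**Figure D1:**
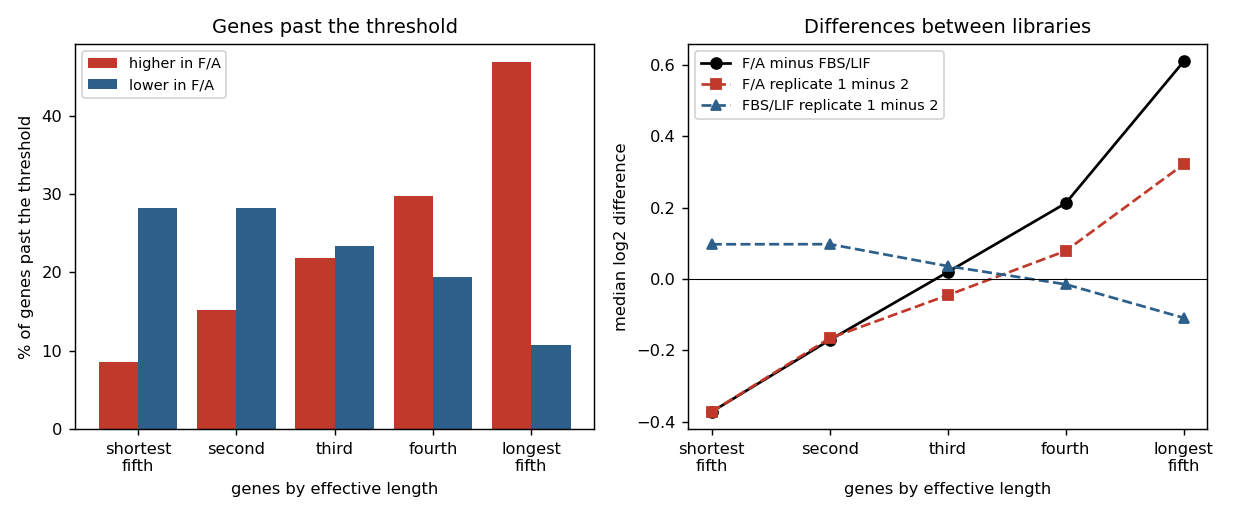
Left, the share of genes past the threshold in each of 5 classes of the tested genes by effective length (red higher in F/A, blue lower in F/A). Right, the median log2 difference in each class for F/A minus FBS/LIF (black), between the 2 F/A libraries (red) and between the 2 FBS/LIF libraries (blue). Shares higher in F/A run from 8.54% to 46.8% from the shortest to the longest class.

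Cells in F/A differed from cells in FBS/LIF in 7440 genes at an adjusted p under 0.05, which is 46.4% of the genes tested. Of these, 3916 were higher (24.4% of the genes tested) and 3524 were lower (22.0%). Counts of list members given below are to be read against these shares. Changes of at least 2-fold made up 2642 higher genes (16.5% of those tested) and 1641 lower genes (10.2%). The median absolute log2 fold change was 1.36 among the genes that rose and 0.94 among those that fell. The most extreme changes were mostly falls, with 348 genes lower and 224 higher by at least 4 on the log2 scale. The split depends on scaling. With library totals alone, in which the median over all genes shifts to 0.25 from 0.045, 67.7% of the called genes were higher, against 52.6% here. The values of the 2 groups did not overlap for 72.0% of all genes tested, so a lack of overlap alone says little about a gene. Without F/A replicate 1, 5845 genes were called, without F/A replicate 2, 8400, and without FBS/LIF replicate 1, 4544.

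Single libraries from a separate experiment also sampled cells moved to a medium with activin A and bFGF, for which the labels give no dose of bFGF. There, cells described as positive for both reporters were sampled at day 0, when the serum and LIF medium held 100 µM vitamin C, and after 3 and 5 days in F/A. Their RNA was extracted with another reagent, and with 1 library per time there is no test. Among genes with at least 20 counts in these libraries, 3499 of the 3762 genes higher in F/A lay above their day 0 value at day 5 (93.0%), and 3108 of the 3369 lower genes lay below it (92.3%). Of all such genes, 51.7% lay above day 0. CPM values of these libraries are called day 0, day 3 and day 5 values below.

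**Figure D2:**
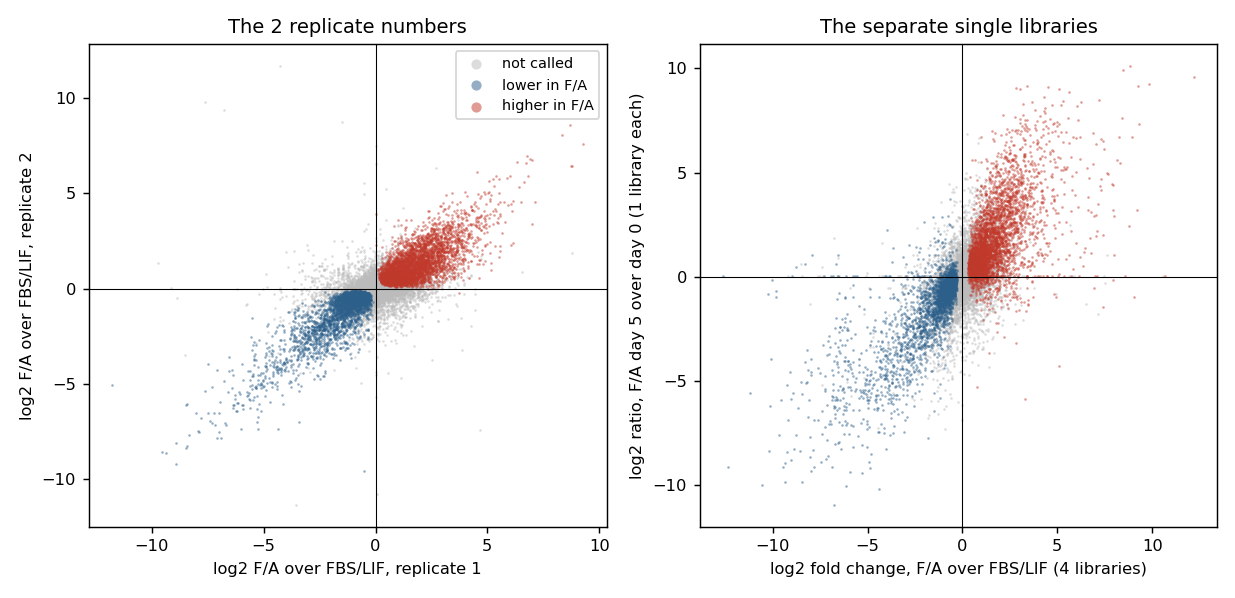
Each point is 1 tested gene (red higher in F/A, blue lower in F/A, grey not past the threshold). Left, the log2 ratio of F/A over FBS/LIF in replicate 1 against that in replicate 2. Right, the fitted log2 fold change against the log2 ratio of the single F/A day 5 library over the single day 0 library. Of the 3916 higher genes, 3913 had a ratio above 0 under both replicate numbers.

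The 12 largest rises among well-expressed genes were those of Aplnr, Pcdh7, T, Lhx1, Foxb1, Mixl1, Nkx1-2, Fgf8, Dgkk, Apln, Rspo3 and Piezo2. Most of these are known from the primitive streak or the early mesoderm. Aplnr, the receptor of the peptide apelin, had 33.7 and 28.1 CPM in F/A and no counts in either FBS/LIF library. Against a floor of 3 counts over the FBS/LIF group it was at least 425.3-fold higher. Apln, which encodes apelin, had 82.2 and 101.2 CPM in F/A, against 1.16 and 1.59 CPM in FBS/LIF (log2 fold change 6.05 ± 0.22 SE, adjusted p = 5.1e-07). Receptor and ligand were thus both among the 12, and in the single libraries Aplnr was at 0 CPM on day 0 and 45.4 CPM on day 5. Pcdh7, a protocadherin gene, had 94.1 and 57.1 CPM in F/A, against 0.0462 and 0.188 CPM in FBS/LIF. Piezo2, a mechanosensitive ion channel gene, had 114 and 56.0 CPM in F/A, against 1.16 and 2.25 CPM in FBS/LIF.

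The 12 largest falls were those of Krt42, Ooep, Dppa3, Dnmt3l, Rpl39l, Morc1, Myo1f, Dppa5a, Mymx, Zfp42, Dppa2 and Nr0b1, of which several are known from the naive state, the oocyte or the germline. Krt42, a type I keratin gene, had no counts in either F/A library and 36.3 and 32.1 CPM in FBS/LIF, at least 318.2-fold lower against 3 counts over the F/A group. Ooep, a gene of the maternal complex of the oocyte, had 1 count over both F/A libraries and 2787 over both FBS/LIF libraries. The ratio of F/A to FBS/LIF, scaled for depth, was 0.000553 with a 95% counting interval of 1.4e-05 to 0.00308. Rpl39l, a ribosomal protein gene used in the testis, had 0.127 and 0 CPM in F/A, against 31.9 and 24.7 CPM in FBS/LIF. Ooep was at 121, 3.73 and 0.0603 CPM at day 0, day 3 and day 5 of the single libraries.

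In the naive pluripotency list, 20 of 22 tested members passed as lower in F/A and none as higher. Their median log2 fold change was -5.60, against 0.045 over all genes tested. Their CPM summed to 79.6 and 60.6 in F/A and to 3268 and 3158 in FBS/LIF. Esrrb, an orphan nuclear receptor of the naive network, had 1.27 and 1.15 CPM in F/A, against 143 and 183 CPM in FBS/LIF (log2 fold change -7.09 ± 0.28 SE, adjusted p = 7.3e-07). Zfp42, which encodes the naive marker Rex1, had 1.40 and 1.90 CPM in F/A, against 482 and 420 CPM in FBS/LIF (-8.04 ± 0.26). Both genes were down to trace levels in both F/A libraries. Nr0b1, the gene of the nuclear receptor Dax1, had 0.38 and 0.45 CPM in F/A, against 114.5 and 104.8 CPM in FBS/LIF. Dppa3, a maternal factor that protects DNA from demethylation in the zygote, had 1 count over the F/A libraries and 2028 over the FBS/LIF libraries. Klf4, Klf2 and Tbx3, transcription factors of the same network, fell by 6.08, 5.90 and 4.03 on the log2 scale. Klf5 and Spic were the members that did not pass the test. Klf5 had 13.2 and 5.25 CPM in F/A, against 11.9 and 23.2 CPM in FBS/LIF (-0.98 ± 0.49, adjusted p = 0.13), and it passed without F/A replicate 1 (-1.75, adjusted p = 0.033). Spic had 4.18 and 0.85 CPM in F/A, against 1.25 and 1.83 CPM in FBS/LIF, and it was higher without F/A replicate 2 (1.38, adjusted p = 0.018). In the single libraries Klf4 ran from 223 CPM at day 0 through 3.14 CPM at day 3 to 27.4 CPM at day 5, so it was not lowest at the last time.

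The core pluripotency genes lay closer to their FBS/LIF level, with a median of -0.96. Of 14 tested, 11 were lower in F/A and 1 was higher. Pou5f1, the gene of Oct4, had 416 and 555 CPM in F/A, against 946 and 818 CPM in FBS/LIF (log2 fold change -0.86 ± 0.17 SE, adjusted p = 0.0038). Nanog had 48.2 and 51.9 CPM in F/A, against 130 and 161 CPM in FBS/LIF (-1.54 ± 0.14, adjusted p = 6.9e-05). Sox2, the partner of Oct4 on many enhancers, fell to 47.3 and 73.8 CPM in F/A, against 669 and 662 CPM in FBS/LIF (-3.45 ± 0.21, adjusted p = 7.3e-06). All 3 genes were lower in both F/A libraries than in either FBS/LIF library, as were all 3524 genes called lower. Dppa2 and Dppa4, a pair of chromatin proteins that bind each other, fell by 8.02 and 4.93 on the log2 scale. Sall4, a zinc finger gene of the same network, was among the members that did not pass. It had 265 and 208 CPM in F/A, against 195 and 293 CPM in FBS/LIF. The member that rose was Lin28a, an RNA-binding protein gene, at 0.38 ± 0.12 (adjusted p = 0.032), and this call was lost without either FBS/LIF library or without F/A replicate 2, when 0 core genes were higher. It was also lost with the length trend taken out (0.15, adjusted p = 0.43). In the single libraries Sox2 was at 487, 129 and 34.7 CPM at day 0, day 3 and day 5, and Pou5f1 at 1152, 985 and 784 CPM.

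**Figure D3:**
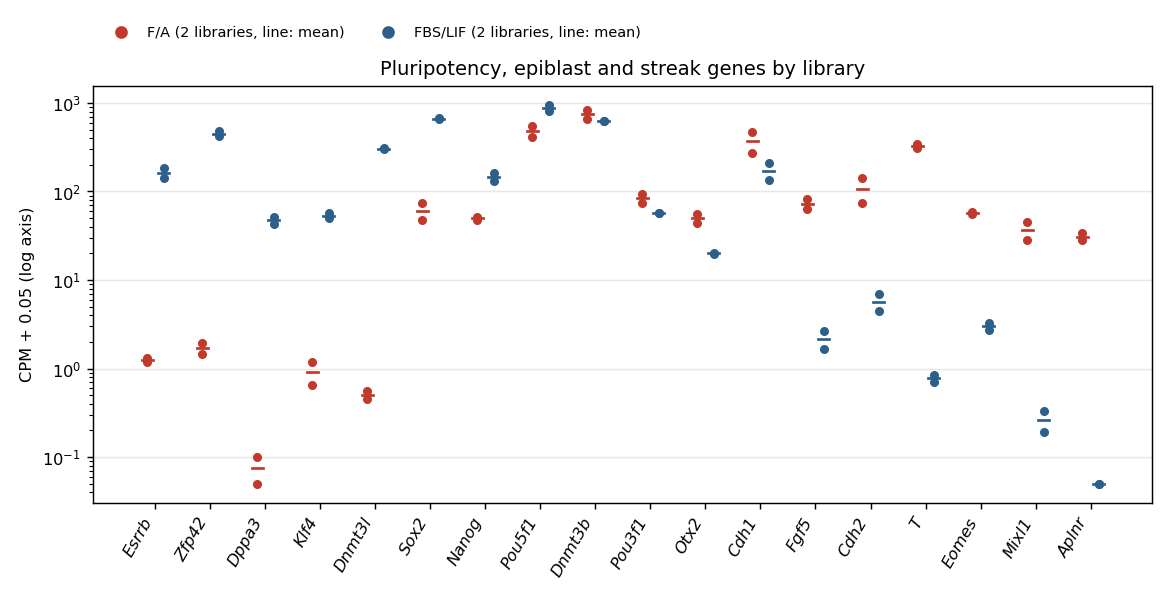
CPM of 18 genes in each library on a log axis, with 0.05 added to each value, F/A left (red) of FBS/LIF (blue) for each gene, lines marking the mean of 2 libraries. Esrrb, Zfp42, Dppa3, Klf4 and Dnmt3l lie near the bottom in F/A, Pou5f1 and Dnmt3b lie close to their FBS/LIF level, and Fgf5, Cdh2, T, Eomes, Mixl1 and Aplnr lie well above it.

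Of 22 genes of the primed epiblast, 16 rose and 4 fell (median 1.10). Fgf5, the growth factor gene that marks the epiblast after implantation, had 81.2 and 63.0 CPM in F/A, against 1.62 and 2.58 CPM in FBS/LIF (log2 fold change 5.10 ± 0.26 SE, adjusted p = 8.6e-06). Otx2, a homeobox gene that directs the exit from the naive state, had 44.5 and 54.9 CPM in F/A, against 19.7 and 20.1 CPM in FBS/LIF (1.32 ± 0.14, adjusted p = 0.00017). Sox3, a relative of Sox2, had 17.0 and 13.3 CPM in F/A, against 1.02 and 1.45 CPM in FBS/LIF (3.60 ± 0.27). Sox3 thus rose in the samples where Sox2 fell. Dnmt3b, a de novo DNA methyltransferase gene of the primed state, was high in both media, with 665 and 829 CPM in F/A and 633 and 631 CPM in FBS/LIF, and it did not pass (0.24 ± 0.13, adjusted p = 0.16). It passed without F/A replicate 1 (0.38, adjusted p = 0.024). Pou3f1, which encodes Oct6, passed narrowly (0.57 ± 0.20, adjusted p = 0.046) and did not pass with the length trend taken out (0.42, adjusted p = 0.12). About 2.01% of its estimated count in F/A and 2.25% in FBS/LIF came from fragments that hit this gene alone, and the call was lost without FBS/LIF replicate 1 (adjusted p = 0.15), without FBS/LIF replicate 2 (0.12) or without F/A replicate 2 (0.26), so its value is uncertain. Trh, the gene of thyrotropin releasing hormone, went the other way, with 30.9 and 34.8 CPM in F/A, against 295 and 270 CPM in FBS/LIF (-3.10 ± 0.17).

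Genes of the primitive streak and mesendoderm were the list with the highest median, 5.22, or 5.02 with genes that had no counts in FBS/LIF placed at their bound. Of 21 tested, 20 rose and 0 fell, and their CPM summed to 703 and 693 in F/A, against 12.8 and 17.1 in FBS/LIF. T, which encodes brachyury, had 308 and 345 CPM in F/A, against 0.647 and 0.797 CPM in FBS/LIF (log2 fold change 8.81 ± 0.20 SE, adjusted p = 8.2e-08). Eomes, a T-box factor of mesendoderm, had 54.9 and 58.3 CPM in F/A, against 2.68 and 3.23 CPM in FBS/LIF (4.26 ± 0.18). For both genes the 2 F/A libraries lay close together and far above both FBS/LIF libraries. Mixl1, a homeobox gene of the streak, had 45.3 and 27.9 CPM in F/A, against 0.277 and 0.141 CPM in FBS/LIF. Genes of the anterior streak and the endoderm were included, such as Gsc (6.68 ± 0.42) and Foxa2 (5.22 ± 0.74). Cer1, a secreted antagonist of Nodal, Wnt and BMP, had 4.06 and 4.35 CPM in F/A and no counts in FBS/LIF, at least 61.1-fold higher against 3 counts over the FBS/LIF group. Genes of the later mesoderm rose as well but stayed low, with Msgn1 at 1.01 and 1.25 CPM and Mesp1 at 2.03 and 1.45 CPM in F/A. Hhex was the member that did not pass (0.48 ± 0.42, adjusted p = 0.37). In the single libraries the streak genes differed in their timing. T was at 0.703, 20.7 and 850 CPM at day 0, day 3 and day 5, and Mixl1 at 0.41, 1.40 and 43.1 CPM, whereas Fgf5 was already at 80.2 CPM on day 3 and at 121 CPM on day 5.

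Wnt ligands rose in 10 of 13 cases, with 1 lower (median 3.01), and Wnt targets and feedback genes rose in 14 of 17, with 1 lower (median 2.26). Wnt3, which is required for the streak to form, had 40.5 and 41.4 CPM in F/A, against 1.80 and 2.34 CPM in FBS/LIF (log2 fold change 4.30 ± 0.23 SE, adjusted p = 4.0e-06). Wnt6 had 41.2 and 44.0 CPM in F/A, against 2.50 and 1.22 CPM in FBS/LIF (4.51 ± 0.40). Rspo3, whose protein strengthens Wnt signals at the receptor, had 21.7 and 15.9 CPM in F/A, against 0.462 and 0.188 CPM in FBS/LIF (5.82 ± 0.44). Among the targets, Axin2, a negative feedback gene of the pathway, had 37.9 and 30.9 CPM in F/A, against 3.98 and 3.80 CPM in FBS/LIF (3.14 ± 0.21). Sp5 and Sp8, zinc finger genes induced by Wnt, rose by 4.50 ± 0.26 and 4.98 ± 0.35. Most ligands and most targets thus rose. Of all 3916 higher genes, 3913 had a ratio above 0 under both replicate numbers, so agreement between the libraries says little here. The members that fell were Notum, which encodes an enzyme that inactivates Wnt proteins, and Wnt7b. Notum had 0.634 and 0.35 CPM in F/A, against 23.1 and 15.98 CPM in FBS/LIF (-5.46 ± 0.35, adjusted p = 1.0e-05). Wnt7b had 7.23 and 7.80 CPM in F/A, against 15.4 and 13.5 CPM in FBS/LIF (-0.94 ± 0.22, adjusted p = 0.0093), a call lost without FBS/LIF replicate 1 (adjusted p = 0.061), when 0 ligands were lower. Ccnd1, a cyclin gene often listed as a Wnt target, had 200 and 263 CPM in F/A, against 243 and 244 CPM in FBS/LIF (adjusted p = 0.73).

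Activin A was added to F/A, and the genes of its pathway did not move as one. Of 13 ligands, receptors and transducers tested, 6 rose and 3 fell (46.2% and 23.1%, against 24.4% and 22.0% of all genes tested). The share that fell was thus close to that of all genes. Inhbb, which encodes a subunit of activin B, had 0.38 and 0.25 CPM in F/A, against 51.8 and 47.7 CPM in FBS/LIF (log2 fold change -7.39 ± 0.19 SE, adjusted p = 1.0e-07). Gdf3, a ligand that acts through the same receptors, had 5.07 and 6.70 CPM in F/A, against 122 and 119 CPM in FBS/LIF (-4.32 ± 0.17). Nodal itself had 59.9 and 69.3 CPM in F/A, against 76.8 and 69.3 CPM in FBS/LIF (-0.17 ± 0.12, adjusted p = 0.26). It was lower without F/A replicate 2 (-0.35, adjusted p = 0.047). The receptor gene Acvr2b (1.72 ± 0.29) and the transducer gene Smad3 (1.61 ± 0.17) rose, while Smad2 had 54.3 and 61.4 CPM in F/A and 56.8 and 54.1 CPM in FBS/LIF.

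Of 15 targets and antagonists of Nodal and activin, 8 rose and 6 fell (median 1.77). Those that rose included the streak and endoderm genes Cer1, Mixl1, Gsc, Foxa2 and Eomes, which stand on the mesendoderm list as well. Fst, whose protein follistatin binds and blocks activin, had 269 and 261 CPM in F/A, against 13.2 and 14.8 CPM in FBS/LIF (log2 fold change 4.24 ± 0.20 SE, adjusted p = 1.6e-06). The feedback inhibitors Lefty1 and Lefty2 went the other way. Lefty1 had 20.2 and 22.5 CPM in F/A, against 210 and 166 CPM in FBS/LIF (-3.14 ± 0.15), and Lefty2 had 8.12 and 9.20 CPM in F/A, against 79.0 and 84.2 CPM in FBS/LIF (-3.23 ± 0.12). Smad7, an inhibitor inside the cell, fell by 1.38 on the log2 scale. Lefty1 was not low throughout the single libraries, where it was at 44.2, 381 and 85.7 CPM at day 0, day 3 and day 5, so day 5 lay above day 0 there.

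Among 16 FGF ligands and receptors, 7 rose and 5 fell (43.8% and 31.2%, against 24.4% and 22.0% of all genes tested). Fgf4, the main FGF of naive cells, had 8.496 and 9.45 CPM in F/A, against 185 and 165 CPM in FBS/LIF (log2 fold change -4.28 ± 0.12 SE, adjusted p = 1.3e-07). Fgf8, an FGF of the streak, had 23.1 and 19.6 CPM in F/A, against 0.185 and 0.0937 CPM in FBS/LIF (7.19 ± 0.34). Fgf5 and Fgf8 were thus high in the libraries where Fgf4 was low. Fgfr1, the chief receptor gene of the epiblast, had 113 and 60.7 CPM in F/A, against 17.8 and 24.5 CPM in FBS/LIF (2.03 ± 0.29). Fgfr2 was lower in F/A (-0.69 ± 0.20, adjusted p = 0.022), a call lost when any 1 of the 4 libraries but F/A replicate 2 was left out (adjusted p between 0.063 and 0.087), whereas in the single libraries it was at 2.99 CPM on day 0 and 17.7 CPM on day 5. Of 20 feedback and target genes of FGF and ERK, 12 rose and 3 fell (median 1.05). Dusp4, a phosphatase that acts on ERK, had 70.4 and 78.5 CPM in F/A, against 14.4 and 15.8 CPM in FBS/LIF (2.30 ± 0.14, adjusted p = 6.6e-06). Egr1, an immediate early gene, had 40.1 and 25.9 CPM in F/A, against 7.40 and 11.0 CPM in FBS/LIF (1.83 ± 0.27). The 3 that fell were Spry2, Spry4 and Etv5. Spry4, a feedback inhibitor, had 33.0 and 17.3 CPM in F/A, against 44.7 and 79.3 CPM in FBS/LIF (-1.32 ± 0.38, adjusted p = 0.021). Without FBS/LIF replicate 2, 0 of the 20 were lower, and without F/A replicate 2 Spry4 did not pass (adjusted p = 0.080).

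Of 19 genes of the LIF receptor and of STAT3 targets, 12 fell and 2 rose (median -1.46). These shares are 63.2% and 10.5%, against 22.0% and 24.4% of all genes tested. Klf4, Gbx2, Tbx3 and Tfcp2l1, which fell, stand on the naive pluripotency list as well. Socs3, the feedback inhibitor that STAT3 switches on, had 9.26 and 13.2 CPM in F/A, against 82.2 and 75.3 CPM in FBS/LIF (log2 fold change -2.79 ± 0.17 SE, adjusted p = 7.3e-06). Tfcp2l1, a naive factor downstream of STAT3, had 15.0 and 8.10 CPM in F/A, against 106 and 151 CPM in FBS/LIF (-3.50 ± 0.30, or -4.45 with the length trend taken out). Bcl3, another such target, had 0.254 and 0.10 CPM in F/A, against 4.90 and 3.19 CPM in FBS/LIF (-4.71 ± 0.66). Stat3 itself had 33.7 and 27.3 CPM in F/A, against 87.8 and 90.6 CPM in FBS/LIF (-1.55 ± 0.13). The receptor pair split. Lifr fell to 48.1 and 32.1 CPM in F/A, against 92.0 and 95.9 CPM in FBS/LIF (-1.24 ± 0.17, or -2.02 with the length trend taken out), while Il6st, which encodes the shared subunit Gp130, rose to 261 and 253 CPM in F/A, against 78.4 and 90.0 CPM in FBS/LIF (1.61 ± 0.11, adjusted p = 1.7e-05). Jak1 was the other gene that rose (0.70 ± 0.13), and with the length trend taken out it did not pass (0.17, adjusted p = 0.18).

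The Id genes, which are targets of BMP signalling, were lower in F/A in all 4 cases tested. Id1 had 5.83 and 5.30 CPM in F/A, against 27.8 and 29.6 CPM in FBS/LIF (log2 fold change -2.37 ± 0.20 SE, adjusted p = 4.4e-05). Id4 fell by 3.01, Id3 by 1.64 and Id2 by 0.75 on the log2 scale. BMP ligands did not follow them as a group. Bmp2 had 4.57 and 3.55 CPM in F/A, against 0.277 and 0.562 CPM in FBS/LIF (3.24 ± 0.52), and Bmp7 had 10.5 and 9.20 CPM in F/A, against 0.832 and 1.27 CPM in FBS/LIF (3.22 ± 0.32), while Bmp4 fell by 1.00. Over the 19 BMP pathway and Id genes tested, 10 rose and 5 fell (52.6% and 26.3%, against 24.4% and 22.0% of all genes tested). Fewer rose without FBS/LIF replicate 2. In the single libraries Id2 was at 4.13 CPM on day 0 and 31.5 CPM on day 5, unlike in the comparison of the media.

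Targets of Hedgehog signalling were lower and several Notch genes higher. Gli1, the standard transcriptional readout of Hedgehog, had 1.01 and 1.20 CPM in F/A, against 36.3 and 37.5 CPM in FBS/LIF (log2 fold change -5.02 ± 0.21 SE, adjusted p = 8.9e-07). The receptor gene Ptch1, which is a target too, fell by 2.21 on the log2 scale. Gli3, a mainly repressive member of the Gli family, had 102 and 70.0 CPM in F/A, against 13.1 and 16.6 CPM in FBS/LIF (2.53 ± 0.23, or 1.75 with the length trend taken out), and Smo, the signal transducer, rose by 1.66 ± 0.18. On the Notch side, Nrarp, a direct target, had 18.0 and 22.1 CPM in F/A, against 2.63 and 3.19 CPM in FBS/LIF (2.78 ± 0.21), and Hes1 rose by 1.67 ± 0.14. Hey1 and the ligand gene Dll1 did not pass. Of the 17 genes of both pathways, 10 rose and 4 fell (58.8% and 23.5%, against 24.4% and 22.0% of all genes tested).

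Germline genes whose promoters carry DNA methylation in somatic cells fell in 19 of 21 cases, with 0 higher (median -4.11). Stretches of the promoters of 5 members are shown with the sequence CACGTG in capitals, an E-box that factors of the Max family bind. It was the motif held most often by these promoters among 5 searched. They are from RefSeq on build GRCm38.p6, 5′ to 3′ on the strand of the gene, within the 250 bases before the annotated start. They lie at chr3:95559600-95559645 on the plus strand for Hormad1, at chr6:49395464-49395509 on the plus strand for Stk31, at chrX:134476514-134476559 on the minus strand for Taf7l, at chr13:112652314-112652359 on the minus strand for Ddx4 and at chr10:88459503-88459548 on the plus strand for Sycp3.
Hormad1: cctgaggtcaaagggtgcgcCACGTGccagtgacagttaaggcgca
Stk31: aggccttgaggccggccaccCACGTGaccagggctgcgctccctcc
Taf7l: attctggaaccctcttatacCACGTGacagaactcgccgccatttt
Ddx4: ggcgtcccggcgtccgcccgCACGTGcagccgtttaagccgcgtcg
Sycp3: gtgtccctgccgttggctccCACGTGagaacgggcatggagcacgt

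CACGTG reads the same on both strands. It was found in 11 of the 20 germline genes that have a promoter window (55.0%), in 9.8% of the 11487 tested genes with a window and in 6.9% of all 27025 genes with one. Brdt and Sycp1, the germline genes that did not pass the test, hold it too. With 2 such genes, members that fell and members that did not cannot be compared for its presence. The other motifs searched, on both strands, were TCCCGC, which 9 of the 20 hold (45.0%, against 33.8% of tested genes), and TCACNCCAC, TTCCNGGAA and CTTTGAT, which 0 of the 20 hold.

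Hormad1, a meiotic chromosome axis gene, had 0.127 and 0 CPM in F/A, against 8.46 and 6.84 CPM in FBS/LIF, which is 1 count over the F/A libraries and 329 over the FBS/LIF libraries. Ddx4, the germ cell helicase gene Vasa, had 4.18 and 4.20 CPM in F/A, against 30.0 and 35.7 CPM in FBS/LIF (log2 fold change -2.97 ± 0.21 SE, adjusted p = 1.8e-05). Dazl, an RNA-binding protein gene of germ cells, had 0.254 and 0.45 CPM in F/A, against 8.83 and 7.87 CPM in FBS/LIF (-4.42 ± 0.26). In F/A these genes were thus at or near the detection limit, with Ddx4 the exception. Sycp1 had 10.4 and 3.05 CPM in F/A, against 9.99 and 8.44 CPM in FBS/LIF (-0.51 ± 0.46, adjusted p = 0.39), and it was lower without F/A replicate 1 (-1.60, adjusted p = 0.0036). The single libraries showed different courses, with Dazl at 142, 14.0 and 0.0603 CPM and Ddx4 at 39.1, 95.2 and 3.71 CPM at day 0, day 3 and day 5. The 2-cell genes Zscan4c, Zscan4d and Zscan4f, which share reads with close copies, had 1 count in all over both F/A libraries and summed to 6.2 and 6.9 CPM in FBS/LIF.

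The DNA methylation machinery was split, with 2 of 12 genes higher and 5 lower, or 3 lower without FBS/LIF replicate 2. Dnmt3l, the cofactor that stimulates the de novo methyltransferases, had 0.507 and 0.40 CPM in F/A, against 301 and 307 CPM in FBS/LIF (log2 fold change -9.43 ± 0.21 SE, adjusted p = 8.2e-08). Its level in the other media was 47.3 ± 6.2 CPM with L-proline, 159 ± 0.26 CPM with vitamin C and 106 ± 11.9 CPM with 2i (SD, n = 2 each). Dnmt3l was thus abundant in each of the media with LIF and near absent in F/A. Among the Tet dioxygenases, which oxidise methylated cytosine, Tet2 and Tet3 moved in opposite directions. Tet2 had 14.5 and 9.40 CPM in F/A, against 118 and 143 CPM in FBS/LIF (-3.47 ± 0.21, or -4.37 with the length trend taken out), and Tet3 had 52.1 and 24.7 CPM in F/A, against 4.90 and 8.20 CPM in FBS/LIF (2.54 ± 0.43, or 1.47 with the length trend taken out). Tet1 had 298 and 123 CPM in F/A, against 306 and 459 CPM in FBS/LIF (-0.86 ± 0.38, adjusted p = 0.094). It was lower without F/A replicate 1 (-1.65, adjusted p = 0.0054) and once the length trend was taken out (-2.06, adjusted p = 4.9e-05). Of the maintenance genes, Uhrf1 did not pass, and Dnmt1 was lower (-0.38, adjusted p = 0.038), a call lost without F/A replicate 1 or without either FBS/LIF library (adjusted p between 0.090 and 0.13). With the length trend taken out Dnmt1 was at -0.94 (adjusted p = 0.0042). Zfp57, a protector of imprints, had 41.7 and 33.6 CPM in F/A, against 118 and 139 CPM in FBS/LIF (-1.77 ± 0.15).

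Of 12 genes of Polycomb repressive complex 2, 6 fell and 0 rose, or 1 rose without FBS/LIF replicate 2 or F/A replicate 2. Most of those that fell encode accessory subunits, such as Jarid2 at 202 and 164 CPM in F/A, against 550 and 643 CPM in FBS/LIF (log2 fold change -1.71 ± 0.20 SE, adjusted p = 0.00028). Eed, a core subunit that reads the mark of the complex, had 68.1 and 92.5 CPM in F/A, against 252 and 254 CPM in FBS/LIF (-1.65 ± 0.15). The catalytic subunit gene Ezh2 had 148 and 112 CPM in F/A, against 72.5 and 107 CPM in FBS/LIF (0.54 ± 0.21, adjusted p = 0.067), and it passed without FBS/LIF replicate 2 (0.84, adjusted p = 0.023) and without F/A replicate 2 (0.66, adjusted p = 0.047). Suz12 was not past the test (-0.19), but was lower without F/A replicate 1 (-0.44, adjusted p = 0.042) and with the length trend taken out (-0.58). Ezh1, the alternative catalytic subunit gene, fell by 1.51 ± 0.28. Among 19 imprinted genes, 8 were higher and 4 lower (42.1% and 21.1%, against 24.4% and 22.0% of all genes tested). The share that was lower was close to that of all genes, and fewer were higher without FBS/LIF replicate 1. Peg3, a paternally expressed zinc finger gene, had 621 and 376 CPM in F/A, against 73.5 and 90.4 CPM in FBS/LIF (2.60 ± 0.23, or 1.71 with the length trend taken out), and Phlda2, a maternally expressed growth suppressor, had 2.79 and 2.75 CPM in F/A, against 49.6 and 43.5 CPM in FBS/LIF (-4.07 ± 0.17). Meg3, a noncoding RNA, had 390 and 153 CPM in F/A, against 93.9 and 108 CPM in FBS/LIF (1.43 ± 0.38, adjusted p = 0.015), a call lost without F/A replicate 1 (0.59, adjusted p = 0.070) and without FBS/LIF replicate 1 (adjusted p = 0.087).

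All 24 tested genes of cholesterol synthesis and uptake rose in F/A (median 1.93), against 24.4% of all genes tested. Their CPM summed to 5066 and 5508 in F/A, against 1373 and 1335 in FBS/LIF. These genes are switched on together by the transcription factor SREBP2 when sterols run low in a cell. Stard4, a sterol transport gene, changed most, with 197 and 163 CPM in F/A, against 15.9 and 22.2 CPM in FBS/LIF (3.24 ± 0.23). Hsd17b7 (3.06 ± 0.13), Nsdhl (2.75 ± 0.24) and Msmo1 (2.75 ± 0.16), enzymes of the late steps, rose as well. Srebf2, which encodes SREBP2, rose by 1.34 ± 0.21. The sterol element TCACNCCAC was in 0 of the 16 members that have a promoter window, against 1.2% of tested genes. With a share that low, 0 of 16 cannot tell these members from other genes.

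Fatty acid synthesis rose alongside, with 12 of 14 genes higher and 1 lower (median 1.15). Scd2, a desaturase that makes monounsaturated fatty acids, had 1698 and 1052 CPM in F/A, against 65.3 and 123 CPM in FBS/LIF (log2 fold change 3.87 ± 0.36 SE, adjusted p = 8.2e-05, with a log2 fold change of 3.25 once the length trend was taken out), and Scd1 had 264 and 217 CPM in F/A, against 25.4 and 29.9 CPM in FBS/LIF (3.12 ± 0.14). Fasn, the fatty acid synthase gene, had 1566 and 1267 CPM in F/A, against 439 and 496 CPM in FBS/LIF (1.60 ± 0.15), or 0.69 with the length trend taken out. Every one of these lay above both FBS/LIF libraries in both F/A libraries, as did 3911 of all 3916 higher genes. Fads1 and Fads2, which desaturate polyunsaturated fatty acids, rose by 1.94 ± 0.14 and 2.57 ± 0.13. The member that fell was Acacb, the acetyl-CoA carboxylase tied to control of fatty acid oxidation, with 4.69 and 1.90 CPM in F/A, against 21.6 and 15.3 CPM in FBS/LIF (-2.60 ± 0.36). Cpt1a, the gate of mitochondrial fatty acid oxidation, was chosen after its values were seen. It had 1.90 and 1.60 CPM in F/A, against 14.0 and 17.6 CPM in FBS/LIF (-3.20 ± 0.18).

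**Figure D4:**
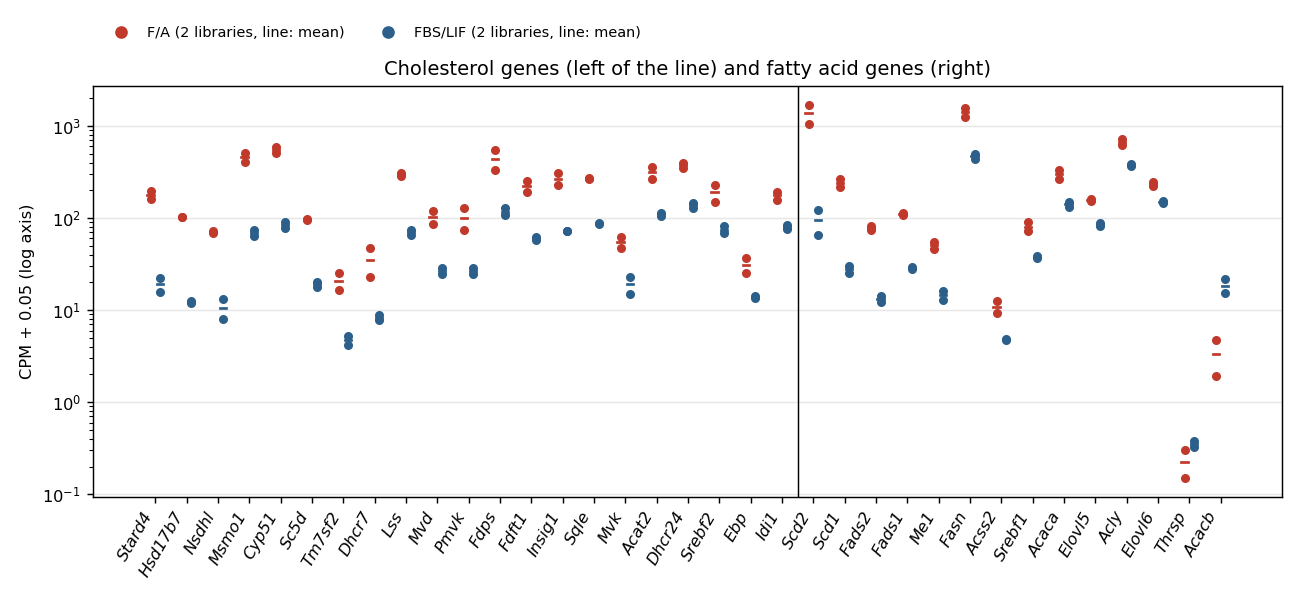
CPM of 21 of the 24 cholesterol genes and of 14 fatty acid genes in each library on a log axis, with 0.05 added to each value, F/A left (red) of FBS/LIF (blue) for each gene, lines marking the mean of 2 libraries, genes ordered within each list by fold change. The 21 cholesterol genes lie higher in both F/A libraries than in either FBS/LIF library, as do 3911 of all 3916 higher genes. Acacb at the far right lies lower.

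Nuclear genes of oxidative phosphorylation fell in 17 of 27 cases with 0 higher (median -0.66). Cox4i1, a subunit of cytochrome c oxidase, had 115 and 177 CPM in F/A, against 479 and 366 CPM in FBS/LIF (log2 fold change -1.53 ± 0.24 SE, adjusted p = 0.0014). Uqcrc1, of complex III, had 130 and 152 CPM in F/A, against 274 and 226 CPM in FBS/LIF (-0.83 ± 0.15). The count of 17 dropped to 4 without FBS/LIF replicate 1 and to 9 with the length trend taken out, and 17 of the 27 genes lie in the shortest length class. What part gene length has in the result was not tested. Of 13 genes of the mitochondrial genome 2 were lower and 0 higher (15.4% and 0.0%, against 22.0% and 24.4% of all genes tested), with fewer lower without FBS/LIF replicate 1. Of the 13, 10 lie in the shortest length class. Glycolysis genes were mostly not past the threshold, with 2 of 19 higher and 4 lower. These shares are 10.5% and 21.1%, against 24.4% and 22.0% of all genes tested. Leaving out F/A replicate 2 gave 10 lower genes, and leaving out F/A replicate 1 or FBS/LIF replicate 1 gave 2. Pfkp, the platelet phosphofructokinase, had 23.5 and 22.9 CPM in F/A, against 121 and 122 CPM in FBS/LIF (-2.40 ± 0.13, adjusted p = 4.6e-06), while its muscle relative Pfkm rose by 0.85 ± 0.16. Of 22 hypoxia response genes 6 rose and 4 fell, with 7 lower without F/A replicate 2 and 10 higher under library totals alone, a share not far from that of all genes. Pdk1, which keeps pyruvate out of the mitochondria, fell by 2.23 ± 0.15, while Ndrg1, a stress response gene, rose by 2.68 ± 0.21.

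Genes of the insulin and IGF system rose in 7 of 12 cases with 0 lower. N2B27 medium contains insulin, and whether that bears on these genes was not tested. Of the 12, 6 lie in the longest length class. Irs1, the adaptor of the insulin and IGF receptors, had 73.4 and 45.9 CPM in F/A, against 1.57 and 2.02 CPM in FBS/LIF (log2 fold change 5.05 ± 0.36 SE, adjusted p = 1.8e-05, with a log2 fold change of 4.10 once the length trend was taken out). Igfbp3, a carrier of IGFs, had 321 and 312 CPM in F/A, against 33.2 and 31.4 CPM in FBS/LIF (3.29 ± 0.11). The receptor genes Igf1r and Insr rose by 2.11 ± 0.28 and 1.52 ± 0.23, or Insr by 0.67 with the length trend taken out. Adaptors, receptors and binding proteins therefore all had members that rose. Igf2 and Igfbp2 did not pass, although Igfbp2 did with the length trend taken out (0.73, adjusted p = 0.011). Igf2 had 13.1 and 5.35 CPM in F/A and 5.87 and 7.69 CPM in FBS/LIF, with a call without F/A replicate 2 (0.88, adjusted p = 0.047). Igfbp2 had 192 and 330 CPM in F/A and 190 and 171 CPM in FBS/LIF, with a call without F/A replicate 1 (0.86, adjusted p = 0.0032).

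Antioxidant genes that NRF2 controls fell in 8 of 16 cases, with 1 higher, or in 5 without FBS/LIF replicate 1. Of all genes tested, 22.0% were lower and 24.4% higher. Of the 16 antioxidant genes, 6 lie in the shortest length class, where 28.2% of genes were lower and 8.54% higher. What part gene length has in these falls was not tested. Gsta4, a glutathione transferase, had 67.1 and 97.1 CPM in F/A, against 360 and 284 CPM in FBS/LIF (log2 fold change -1.97 ± 0.22 SE, adjusted p = 0.00022), and Gpx4, which protects membrane lipids from peroxidation, had 115 and 155 CPM in F/A, against 386 and 302 CPM in FBS/LIF (-1.35 ± 0.22). The higher member was Slc7a11, the cystine transporter (1.44 ± 0.35), a call lost without F/A replicate 1 (adjusted p = 0.067), without FBS/LIF replicate 2 (0.067) and with the length trend taken out (0.13). Among 14 metallothionein, zinc and iron genes 2 rose and 6 fell, with 0 higher without FBS/LIF replicate 1. Mt1 had 18.4 and 18.6 CPM in F/A, against 69.7 and 51.3 CPM in FBS/LIF (-1.71 ± 0.22, or -1.08 with the length trend taken out), and the transferrin receptor gene Tfrc had 440 and 517 CPM in F/A, against 873 and 807 CPM in FBS/LIF (-0.81 ± 0.14). Genes of the ATF4 amino acid response were evenly divided, with 7 of 31 higher and 7 lower, close to the share of all genes. Members lower numbered 4 without FBS/LIF replicate 1 and 11 without F/A replicate 2. Atf4 itself had 240 and 323 CPM in F/A, against 251 and 246 CPM in FBS/LIF (0.18 ± 0.14, adjusted p = 0.34), with a call without F/A replicate 1 (0.37, adjusted p = 0.023).

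Of 20 p53 targets 11 rose and 2 fell, or 1 fell without F/A replicate 1 or without either FBS/LIF library. Cdkn1a, the cell cycle inhibitor p21, had 44.9 and 25.1 CPM in F/A, against 3.00 and 4.73 CPM in FBS/LIF (log2 fold change 3.17 ± 0.41 SE, adjusted p = 0.00051), and it was at 29.0, 122 and 207 CPM at day 0, day 3 and day 5 of the single libraries. Btg2, an antiproliferative gene, had 78.9 and 109 CPM in F/A, against 37.8 and 35.4 CPM in FBS/LIF (1.36 ± 0.18), while Bax, a gene that promotes cell death, fell by 0.84. Of 17 cyclins, partner kinases, inhibitors and Myc genes 4 rose and 4 fell (23.5% each), close to the 24.4% and 22.0% of all genes tested. Ccnd2 had 107 and 63.1 CPM in F/A, against 10.1 and 15.98 CPM in FBS/LIF (2.70 ± 0.41, or 2.04 with the length trend taken out), and Ccne1 had 87.1 and 98.4 CPM in F/A, against 224 and 247 CPM in FBS/LIF (-1.34 ± 0.11). Ccnd3, a relative of Ccnd2, went the other way (-0.72 ± 0.14), so the D-type cyclins were split. In the Myc family, Mycn had 76.6 and 104.7 CPM in F/A, against 327 and 348 CPM in FBS/LIF (-1.89 ± 0.15), Mycl rose by 1.26 ± 0.15, and Myc did not pass (0.91 ± 0.45, adjusted p = 0.13) except without FBS/LIF replicate 2 (1.70, adjusted p = 0.026). Of 10 genes of the Lin28 and let-7 axis 6 rose and 0 fell, or 1 fell with the length trend taken out. Hmga2, a classic let-7 target, had 84.7 and 47.0 CPM in F/A, against 5.73 and 6.70 CPM in FBS/LIF (3.40 ± 0.27), and Lin28b, the paralog of Lin28a, rose by 1.19 ± 0.09.

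Mesenchymal and epithelial genes rose side by side. Of 18 genes of the mesenchymal transition 14 rose and 0 fell, or 1 fell with the length trend taken out (median 2.52). Vim, the intermediate filament vimentin, had 418 and 435 CPM in F/A, against 48.2 and 51.8 CPM in FBS/LIF (log2 fold change 3.09 ± 0.13 SE, adjusted p = 1.1e-06). Cdh2, N-cadherin, had 141 and 74.0 CPM in F/A, against 4.44 and 6.84 CPM in FBS/LIF (4.25 ± 0.37), and the transcriptional repressor Zeb2 had 40.2 and 25.6 CPM in F/A, against 1.57 and 2.06 CPM in FBS/LIF (4.17 ± 0.39). Snai1 was low, at 0.888 and 1.10 CPM in F/A, against 0.185 and 0.188 CPM in FBS/LIF (2.40 ± 0.56), a call lost without FBS/LIF replicate 1 (adjusted p = 0.056). Of 22 epithelial genes 13 rose and 4 fell, with 8 higher without FBS/LIF replicate 1. Cdh1, E-cadherin, did not fall. It had 466 and 272 CPM in F/A, against 134 and 208 CPM in FBS/LIF (1.11 ± 0.30, adjusted p = 0.016), a call lost without FBS/LIF replicate 1 (adjusted p = 0.11) and without F/A replicate 1 (0.10). With the length trend taken out Cdh1 was at 0.65 (adjusted p = 0.045). Dsp, the desmosomal plaque gene, had 164 and 137 CPM in F/A, against 26.8 and 33.6 CPM in FBS/LIF (2.32 ± 0.20, or 1.42 with the length trend taken out), and Krt19 had 49.6 and 70.5 CPM in F/A, against 12.3 and 12.6 CPM in FBS/LIF (2.27 ± 0.20). Epcam had 221 and 285 CPM in F/A, against 314 and 273 CPM in FBS/LIF (adjusted p = 0.26), with a lower call without F/A replicate 2 (-0.47, adjusted p = 0.017).

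Of 22 collagens, laminins and basement membrane genes 13 rose and 3 fell, but 19 of them lie in the longest length class, and with the length trend taken out 7 rose and 5 fell. Col5a1, a fibrillar collagen, had 65.8 and 60.5 CPM in F/A, against 9.38 and 9.98 CPM in FBS/LIF (log2 fold change 2.70 ± 0.13 SE, adjusted p = 1.7e-06, with a log2 fold change of 1.86 once the length trend was taken out). Nid1, a linker of the basement membrane, had 26.8 and 12.2 CPM in F/A, against 68.0 and 87.5 CPM in FBS/LIF (-2.03 ± 0.31, or -2.74 with the length trend taken out). Of 22 serum response, SRF and YAP targets 14 rose and 2 fell (63.6% and 9.1%, against 24.4% and 22.0% of all genes tested). Egr1 and Fos, which rose, stand on the list of FGF and ERK targets as well. The 2 falls, of Acta2 and Myl9, were lost without F/A replicate 1 and without either FBS/LIF library, and that of Myl9 also with the length trend taken out (-0.31, adjusted p = 0.21). Thbs1, thrombospondin, had 247 and 208 CPM in F/A, against 46.5 and 47.6 CPM in FBS/LIF (2.27 ± 0.20, or 1.62 with the length trend taken out), and Amotl2, a feedback gene of YAP, had 412 and 452 CPM in F/A, against 131 and 113 CPM in FBS/LIF (1.82 ± 0.13). The YAP target Ccn2 had 45.8 and 34.6 CPM in F/A, against 29.2 and 38.1 CPM in FBS/LIF, and did not pass (adjusted p = 0.29).

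Genes of antigen presentation on class I molecules rose in 9 of 11 cases with 0 lower (median 1.15). Tap1, the peptide transporter, had 37.8 and 40.4 CPM in F/A, against 8.69 and 7.08 CPM in FBS/LIF (log2 fold change 2.31 ± 0.16 SE, adjusted p = 1.8e-05), and Erap1, which trims the peptides, had 48.4 and 46.2 CPM in F/A, against 9.94 and 8.95 CPM in FBS/LIF (2.32 ± 0.12). The class I gene H2-K1 had 51.7 and 65.4 CPM in F/A, against 28.2 and 24.8 CPM in FBS/LIF (1.15 ± 0.18), and B2m, the shared light chain, rose by 0.89 ± 0.18. Genes for peptide supply and for the class I chains thus rose together. Among 14 retinoic acid response genes 6 rose and 3 fell (42.9% and 21.4%, against 24.4% and 22.0% of all genes tested). Cyp26a1, which breaks retinoic acid down and is active in the streak, had 21.7 and 27.1 CPM in F/A, against 1.43 and 1.88 CPM in FBS/LIF (3.88 ± 0.48). Of 20 Hox genes, 5 passed the filter on low counts, and of these 3 rose. They include Hoxb1 and Hoxd1, of which Hoxd1 did not pass without FBS/LIF replicate 1 (adjusted p = 0.099) or F/A replicate 1 (0.063). The 5 together summed to 7.7 and 5.6 CPM in F/A, against 2.3 and 1.8 CPM in FBS/LIF.

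Markers of other cell types were followed over whole marker sets, since in bulk RNA fewer cells of a type and less RNA per cell cannot be told apart. The 8 pluripotency markers summed to 2150 and 2220 CPM in F/A, against 2980 and 3030 CPM in FBS/LIF. The 10 fibroblast markers summed to 28.7 and 26.2 CPM in F/A, against 7.40 and 5.95 CPM in FBS/LIF. Of the 8 fibroblast markers tested, 7 were higher and 0 lower, and Lum and Postn did not pass the filter. On the wider fibroblast list 10 of 14 rose and 0 fell. Prrx1 had 2.28 and 1.10 CPM in F/A and no counts in FBS/LIF. The part of such cells in the rise of collagen and mesenchymal genes was not tested. The 5 primitive endoderm markers summed to 46.3 and 28.8 CPM in F/A, against 5.22 and 13.1 CPM in FBS/LIF, with Gata4, Gata6 and Pdgfra higher. On the wider primitive endoderm list 10 of 18 rose and 2 fell, or 1 fell without FBS/LIF replicate 2 or F/A replicate 2. Gata6 had 9.38 and 6.75 CPM in F/A, against 0.555 and 1.45 CPM in FBS/LIF (log2 fold change 2.99 ± 0.58 SE, adjusted p = 0.0039), while Sox7, a marker of extraembryonic endoderm, was at 0.507 and 0.15 CPM in F/A and 0.37 and 0.656 CPM in FBS/LIF. Of 7 neuroectoderm genes tested, Ncam1, Nes and Zic1 rose and 0 fell, or 1 fell without F/A replicate 2. Six3 was at 0 in all 4 libraries, and Pax6 had 7.74 and 3.90 CPM in F/A, against 6.10 and 6.61 CPM in FBS/LIF (adjusted p = 0.77). Nes, an intermediate filament gene of neural and other progenitors, did rise, to 316 and 462 CPM in F/A, against 74.4 and 75.6 CPM in FBS/LIF (2.38 ± 0.18, or 1.75 with the length trend taken out). The trophectoderm markers Elf5, Gata3, Cdx2 and Krt7 summed to 11.2 and 8.80 CPM in F/A, against 6.43 and 5.72 CPM in FBS/LIF, of which Cdx2, also a gene of the late streak, rose by 2.26 ± 0.38. Krt7, a keratin gene, was lower (-1.05, adjusted p = 0.045), a call lost when any 1 of the 4 libraries was left out (adjusted p between 0.10 and 0.13) and once replicate was added to the model as a block (0.053). On the wider trophectoderm list 2 of 9 rose and 3 fell (22.2% and 33.3%, against 24.4% and 22.0% of all genes tested).

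**Figure D5:**
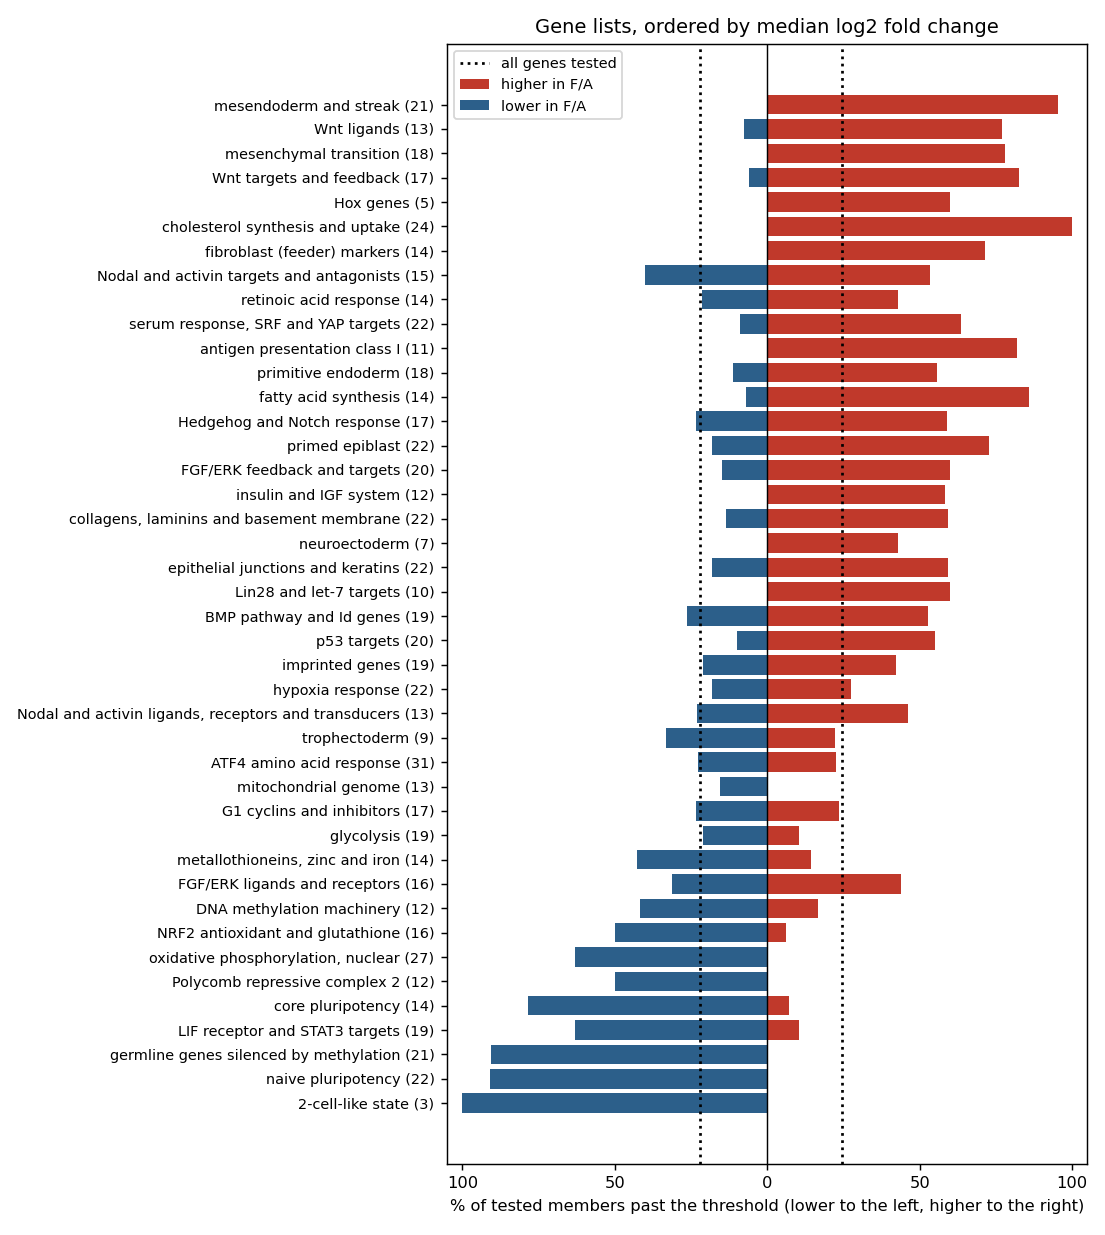
The share of tested members of each gene list past the threshold, lower in F/A to the left (blue) and higher to the right (red), with the number of tested members in brackets and the lists ordered by median log2 fold change. The dotted lines mark the shares of all 16033 genes, 22.0% lower and 24.4% higher. All 24 cholesterol genes and 20 of 21 mesendoderm genes are higher, and 20 of 22 naive genes and 19 of 21 germline genes are lower.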

How the data were processed

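RNA sequencing of 14 libraries was compared as deposited. For the 10 libraries of the media comparison, each file gives per gene the natural log of an expression level in fragments per kilobase (log_mu), an effective length and counts of uniquely hitting fragments, per the file headers. Estimated counts were computed as the exponential of that value times effective length in kilobases times mapped fragments in units of 1000000, and rounded. They are thus rebuilt from the deposited values, and made up 98.81% and 99.47% of mapped fragments in F/A and 99.14% and 99.48% in FBS/LIF. For the 4 single libraries, raw counts per gene were deposited by the authors. Bowtie, TopHat2 2.0.13, HTSeq 0.6.1p1, DESeq and CASAVA, and the builds mm9 and NCBIM37, are named in the submitters' processing notes, with no role given. Gene symbols came from a GENCODE vM21 table, matched by identifier.

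F/A was compared with FBS/LIF by edgeR 4.0.16 (quasi-likelihood F test, TMM scaling, filterByExpr, R 4.3.3) in a fit over the 10 libraries with a term per medium (5 residual degrees of freedom), with Benjamini-Hochberg adjustment over the 16033 genes that passed the filter and a threshold of 0.05. SE is the log2 fold change divided by the square root of F. CPM are scaled by TMM, and those of the single libraries by their totals (33162689 to 39711061 counts). Alternatives used DESeq2 1.42.0 and limma 3.58.1 on log2(FPKM + 1) and log2(FPKM + 0.1). The alternative that takes out a trend on gene length was chosen after seeing the data. Counts of 0 were treated with a floor of 3 counts over the group, and counting intervals cover counting error only.

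Gene lists and members were chosen with earlier results of these data known. The naming rule took the 12 largest changes in each direction among called genes whose mean log2 CPM reached 4 in the group where they were higher, with no overlap between groups and at least 10% of that group's estimate from unique hits, predicted genes and pseudogenes left out, a panel, and up to 5 called and 2 other members per list. Other genes were named after their values were seen. Promoter sequences are from RefSeq, GRCm38.p6, and genes without a window are not used there. List genes without an identifier in the symbol table were not analysed here. The build of the files differs from the reference, so no gene coordinates of the files are given. Some genes are not reported here.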

Additional observations from a re-analysis of the deposited data

How the results depend on the processing

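Fitting the 4 libraries of the comparison alone gave 4315 calls (2408 higher, 1907 lower), against 7440 (3916 higher, 3524 lower). Leaving out 1 library at a time gave 4544 to 8400 calls, 2425 to 4019 higher and 2119 to 4381 lower, the fewest without FBS/LIF replicate 1 and the most without F/A replicate 2. In all 4 of these fits, 2130 of the higher and 1899 of the lower genes were called with the same sign. The share of called genes that were higher was 52.6%, against 67.7% with library totals alone, 67.4% with limma on log2(FPKM + 1) (2328 lower) and 66.3% on log2(FPKM + 0.1). With the length trend taken out, an alternative chosen after seeing the data, 7157 genes were called and 6003 kept call and sign. Spred1 (-0.61) and Lamc1 (-0.63) were called lower there and had positive, uncalled values otherwise. The cause was not tested. The labels do not say what a shared replicate number marks, but effective lengths differed with it. Over genes longer than 1000 bases, the median difference from FBS/LIF replicate 1 was -1 to 7 bases in replicate 1 libraries. In replicate 2 libraries of the 10 it was 39.41 to 54.13 bases. The common biological coefficient of variation was 0.238 in the main fit, which has no replicate block, and 0.189 with the block. Deviations of same-numbered F/A and FBS/LIF libraries correlated at 0.0985 (other pairs of media 0.125 to 0.518), and a fit with the replicate block called 7300 genes, of which 7102 were shared. Of 202 called genes under the naming rule, 21 lost the call when some library was left out, and no such gene reversed. The shallow F/A replicate 1 limits what can be said of genes with few counts.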

Other observations

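The share of genes that passed the test differed between chromosomes. Of 579 tested genes on chromosome X, 35.1% were higher in F/A and 18.5% lower, and of 848 on chromosome 1, 33.6% were higher and 20.4% lower, against 24.4% and 22.0% of all genes tested. Gene length was not matched between chromosomes, and its part in this was not tested.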
